A study of Homo sapiens with 2 samples.

Results

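The olfactory receptor (OR) genes of chromosome 11 were examined in lists of RUNX2 and MTA1 peaks from MDA-MB-231, a human cell line derived from triple-negative breast cancer. Members were the protein-coding genes that RefSeq places on chromosome 11 of GRCh38 and whose symbols are built as OR, number, letters and number, such as OR5A1. Set with earlier results of these data known, the rule used no measured value and found 171 genes by name and position. Of these, OR8U8, OR8U9 and OR9G9 are listed apart from the main sequence of the chromosome, on an alternate sequence, and the other 168 were placed beside the peaks. They were set against the 1129 other protein-coding genes of the same chromosome. The libraries came from cells for which no treatment is named, with an antibody against RUNX2, a transcription factor of bone formation, or against MTA1, a subunit of the NuRD complex that remodels and deacetylates chromatin. CUT&Tag, in which an antibody directs a transposase to the protein on chromatin, was named for both, although the labels also describe end repair and adaptor ligation. The suppliers given for the antibodies differ between the labels and the methods. The RUNX2 list held 61717 peaks, 3376 of them on chromosome 11, and the MTA1 list 42698, with 2293 on chromosome 11. There was 1 library per antibody, so nothing here is replicated and no test between conditions was possible. The 95% intervals are exact and cover counting error only, and they treat genes or peaks as independent, which neighbouring OR genes are not. Read depth is unknown for both libraries, and a missing peak can be a weak signal as well as an absent one.

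Olfactory receptors are G protein-coupled receptors that detect odorants in the sensory neurons of the nose. Each such neuron transcribes an allele of a single OR gene, while the remaining OR genes are held in compact chromatin. Class I receptors, which fish also carry, form a large cluster on the short arm of chromosome 11, and class II receptors are found mainly in land vertebrates. The coding part of an OR gene lies as a rule in a single exon. OR genes are usually silent outside sensory tissue, but RNA was not measured in these libraries.

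Few OR genes had a peak of either library near an end. A RUNX2 peak lay at least partly within 3 kb of the start or end of 12 of the 168 OR genes, or 7.14% (95% interval 3.75% to 12.1%), where 57.9% of all 1297 protein-coding genes of the chromosome had one. An MTA1 peak was present at 6 OR genes, or 3.57% (1.32% to 7.61%), where 55.9% of all genes had one. Peaks of both libraries were present at 3 OR genes, OR52H1, OR52K1 and OR56B1, or 1.79% (0.370% to 5.13%), where 50.2% of all genes had both. No peak of either list was near an end of 153 OR genes, while 9 had a RUNX2 peak alone and 3 an MTA1 peak alone. Among the 1129 other genes, 65.5% (62.6% to 68.2%) had a RUNX2 peak and 63.7% (60.8% to 66.5%) an MTA1 peak. These shares were 9.16-fold and 17.8-fold those of the OR genes, and the intervals did not overlap.

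OR genes are short, so the windows around their ends overlap and give a peak less room. The median span of the members was 1103 bp, against 18221 bp for the other genes. Among the 386 other genes with a span of at most 10 kb, 63.0% (57.9% to 67.8%) had a RUNX2 peak and 57.5% (52.4% to 62.5%) an MTA1 peak. The MTA1 share of short genes lay below the interval of all other genes, and both shares stayed far above those of OR genes. Counted per length, the windows of OR ends covered 1.45 Mb and held the centres of 13 RUNX2 peaks, or 8.95 per Mb (4.76 to 15.3). The windows of the other genes held 83.4 per Mb (78.1 to 89.1). For MTA1 the values were 4.82 per Mb (1.94 to 9.92) and 75.4 per Mb (70.3 to 80.8). The gap between OR genes and other genes was thus of the same order per gene and per Mb.

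**Figure D1:**
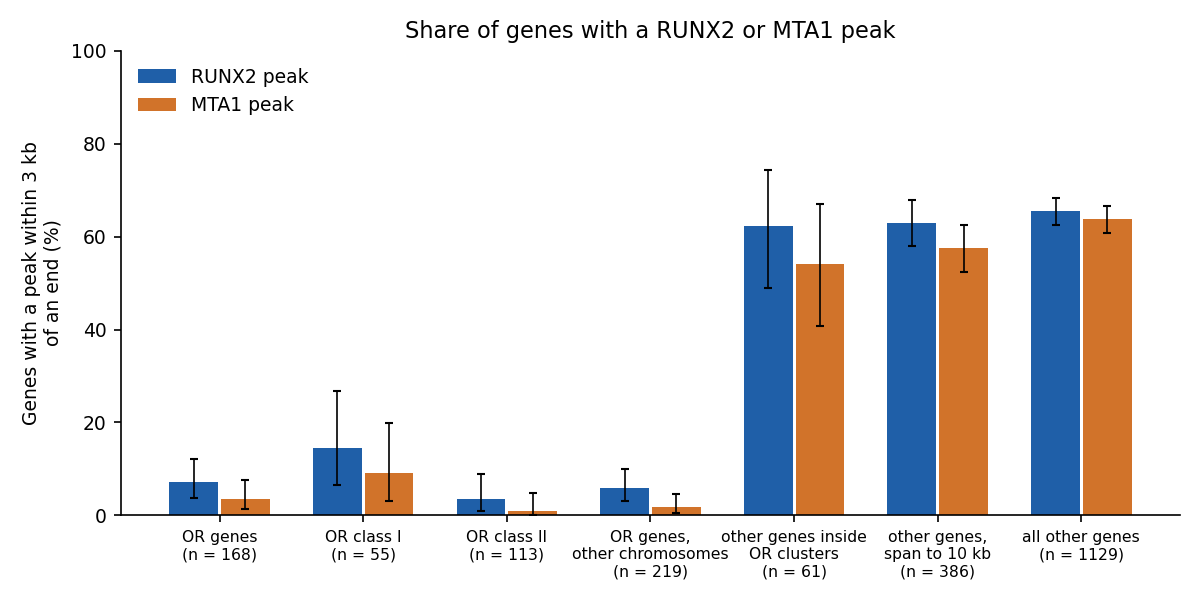
Bars give the percentage of genes with a RUNX2 (blue) or MTA1 (orange) peak within 3 kb of an end, with exact 95% intervals as error bars and the number of genes under each group. The OR groups lie between 0.885% and 14.5%, and the groups of other genes between 54.1% and 65.5%.

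Of the class I receptors, 8 of 55 (14.5%, 6.50% to 26.7%) had a RUNX2 peak and 5 (9.09%, 3.02% to 19.95%) an MTA1 peak. Of the class II receptors, 4 of 113 (3.54%, 0.973% to 8.82%) had a RUNX2 peak and 1 (0.885%, 0.0224% to 4.83%) an MTA1 peak. All 3 genes with both peaks were of class I. The intervals of the classes overlapped in both lists. All class I genes lie in the same cluster, whose 12 class II genes had no peak of either list (0 of 12, which allows up to 26.5%), too few to set the classes apart there.

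OR52H1, a class I receptor, carried the highest RUNX2 score of the members. Its RUNX2 peak, at chr11:5550853-5551075, was 223 bp wide with a score of 14.1, which was higher than 79.1% of all RUNX2 scores. The score is the value that the authors' peak caller gave, on a scale that was not stated, and was ranked only within its own list. An MTA1 peak at chr11:5550810-5551085 overlapped it with a score of 5.53, higher than 24.4% of MTA1 scores. Both peaks lay upstream of OR52H1, the RUNX2 peak 2313 bp and the MTA1 peak 2270 bp from the gene, and within 3 kb of the pseudogene OR52H2P. The nearest protein-coding gene outside the family, UBQLNL, was 34154 bp from the RUNX2 peak. The site thus ranked high in the RUNX2 list and low in the MTA1 list.

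At OR52K1 a RUNX2 peak at chr11:4493288-4493459 (score 3.67) overlapped an MTA1 peak at chr11:4493324-4493439 (score 5.53). Both lay inside the gene span, within 58 bp of an end. OR56B1 held a RUNX2 peak at chr11:5736989-5737087 (score 3.58) that overlapped an MTA1 peak at chr11:5737002-5737129 (score 4.36). A further MTA1 peak at chr11:5737246-5737368 had a score of 5.92, the highest MTA1 score of any member and still higher than only 35.2% of the MTA1 list. OR56B1 lies within the 29487 bp span of OR52N4, so these peaks are inside both genes. All peaks of OR52K1 and OR56B1 therefore ranked in the lower part of their lists.

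The other class I genes with a RUNX2 peak were OR51C1, OR52N1, OR52N4, OR52R1 and OR52W1. OR51C1, OR52N1 and OR52W1 each had a peak with the same score of 5.22, at chr11:4691012-4691110, chr11:5788122-5788220 and chr11:6199587-6199727, all inside the gene span. The peak at OR51C1 also lies inside OR51E2, known from prostate, which had no peak within 3 kb of an end and was 71.8 kb from the nearest MTA1 peak. OR52R1 had a peak at chr11:4801162-4801260 (score 3.67), 2173 bp downstream, and OR52N4 had one at chr11:5727062-5727160 (score 3.58) inside its span. OR51T1 and OR51M1 had an MTA1 peak without a RUNX2 peak. The peak in OR51T1 was at chr11:4882061-4882176 (score 3.75), and the peak at OR51M1 was at chr11:5380894-5381009 (score 5.76), 2803 bp outside the gene and inside the span of OR51B5. The peaks at OR52R1 and OR51T1 also lie in the span of MMP26, a matrix metalloproteinase gene of 287646 bp that encloses OR genes.

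Among class II genes, OR9G1 had the second highest RUNX2 score of the members. Its peak at chr11:56700386-56700515 was inside the gene, had a score of 10.4, higher than 69.9% of the list, and was 481438 bp from the nearest other protein-coding gene, LRRC55. OR4C3 held a pair of RUNX2 peaks, at chr11:48325012-48325110 and chr11:48325355-48325495, both with a score of 4.84 and both inside its 1036 bp span. OR10S1 had a RUNX2 peak at chr11:123979140-123979238 (score 5.22), 1359 bp outside the gene. OR8D1, the only class II gene with an MTA1 peak, had it at chr11:124305187-124305302 inside its span with a score of 3.61, higher than 3.25% of MTA1 scores. No class II member combined a RUNX2 with an MTA1 peak (0 of 113, which allows up to 3.21%).

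At OR4D6, another class II gene, the RUNX2 peak at chr11:59456974-59457072 (score 5.22) overlapped the promoter as RefSeq gives it, from 250 bases before to 50 bases after the start of the gene. It was the only one of 138 promoters of OR genes (0.725%, 0.0183% to 3.97%) that a RUNX2 peak overlapped, and no MTA1 peak overlapped any. Of the 1144 promoters that the table gives for other genes of the chromosome, 45.4% (42.5% to 48.3%) overlapped a RUNX2 peak and 46.8% (43.8% to 49.7%) an MTA1 peak. These windows are not alike in kind. The listed start was an ATG, a likely coding start, in 46.4% of the OR promoters and in 2.62% of the others. Promoters were listed for 80.4% of the OR genes and 72.5% of the other genes. The promoter window of OR4D6 (GRCh38, plus strand, chr11:59456711-59457010) is shown because it alone overlapped a peak, with the bases covered by the peak in capitals. Beside it stands the promoter of OSBP (minus strand, chr11:59615725-59616024), which codes for an oxysterol-binding protein and lies in the same OR cluster, with each CG dinucleotide in capitals. Of the other genes inside OR clusters, OSBP had the highest-ranking peak over its promoter, an MTA1 peak at chr11:59615733-59616435 with a score of 41.1, higher than 98.3% of the list.

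OR4D6: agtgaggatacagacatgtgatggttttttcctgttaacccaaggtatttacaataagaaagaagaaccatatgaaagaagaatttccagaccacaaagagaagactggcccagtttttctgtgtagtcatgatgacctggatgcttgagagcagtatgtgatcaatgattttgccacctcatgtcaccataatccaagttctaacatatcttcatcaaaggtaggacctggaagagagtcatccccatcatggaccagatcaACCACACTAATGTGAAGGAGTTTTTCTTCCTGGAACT

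OSBP: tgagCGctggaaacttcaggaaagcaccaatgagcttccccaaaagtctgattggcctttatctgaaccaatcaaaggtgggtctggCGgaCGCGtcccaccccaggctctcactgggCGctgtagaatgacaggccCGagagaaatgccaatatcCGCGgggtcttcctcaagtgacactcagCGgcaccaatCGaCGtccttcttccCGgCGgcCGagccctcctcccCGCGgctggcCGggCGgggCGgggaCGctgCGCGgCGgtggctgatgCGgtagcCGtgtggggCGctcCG

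The peak covered the last 37 bases of the OR4D6 promoter window and began 13 bases past the first base of the listed gene start, which is an ATG. The peak thus overlapped only bases after that start and none before it. The promoter of OR4D6 held 0 CG dinucleotides and that of OSBP held 27. The capitals of OR4D6 begin with ACCACA, which read on the other strand is TGTGGT, a core of the RUNX motif. The same letters occur again upstream in lower case, outside the peak, and OSBP held a core too. Such a match is a description of the letters and not of a binding site.

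Scores at OR ends were low and widths narrow. The 13 RUNX2 peaks at OR ends had scores from 3.58 to 14.1 with a median of 5.22, while the 907 RUNX2 peaks at other gene ends had a median of 9.33 and reached 84.0. By rank, the median peak at an OR end was above 29.3% of the RUNX2 list, and the median peak at other gene ends above 66.1%. Of the 13 peaks, 2 reached the median score of the list (15.4%), against 67.4% at other gene ends. None was in the top decile of scores, where 16.1% of peaks at other gene ends lay. The narrowest width of the list, 99 bp, was that of 8 peaks at OR ends (61.5%) and of 16.4% of peaks at other gene ends.

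The 7 MTA1 peaks at OR ends had scores from 3.61 to 5.92 with a median of 5.53, against a median of 10.1 at other gene ends, where they reached 95.4. None reached the median score of the MTA1 list, while 64.8% of the 819 peaks at other gene ends did. The narrowest width, 116 bp, was that of 4 of the 7 (57.1%) and of 14.9% at other gene ends. Scores were shared between members. The value 5.22 was carried by 5 of the 13 RUNX2 peaks at OR ends, by 2.09% of the RUNX2 peaks at other gene ends and by 9.99% of the whole list.

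**Figure D2:**
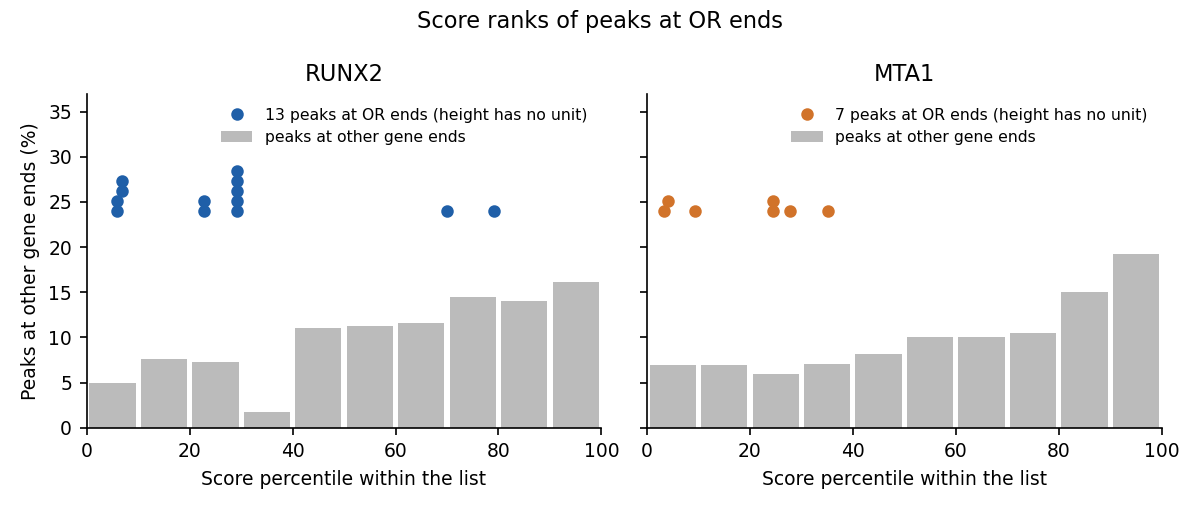
Points give the score percentile within its own list (horizontal axis, %) of each of the 13 RUNX2 and 7 MTA1 peaks at OR ends, stacked where they coincide, and grey bars give the percentage of peaks at other gene ends in each decile of the list. The MTA1 points reach 35.2% at most, and 11 of 13 RUNX2 points lie at or below 29.3%.

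An MTA1 peak shared 1 bp or more with 3 of the 13 RUNX2 peaks at OR ends (23.1%, 5.04% to 53.8%), against 69.0% (65.9% to 72.0%) at other gene ends. In the other direction the count was 3 of 7 MTA1 peaks (42.9%, 9.90% to 81.6%), against 75.6% (72.5% to 78.5%). Because overlap moves with the score, peaks below the median score of their list were also compared. There, 2 of 11 RUNX2 peaks at OR ends (18.2%, 2.28% to 51.8%) and 33.8% (28.4% to 39.5%) at other gene ends overlapped. For MTA1 the shares below the median were 3 of 7 and 47.2% (41.3% to 53.2%). At like scores the intervals overlapped in both lists, and the number of peaks at OR ends was too small to show a difference of this size.

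The rise of peaks next to gene ends was not seen around the listed ends of OR genes. In the first 1 kb outside the span, other genes had 210.8 RUNX2 peaks per Mb (189 to 234) and 213 MTA1 peaks per Mb (192 to 237). In the same 1 kb around OR genes, 0.302 Mb in all, there were 0 peaks of either list, which allows up to 12.2 per Mb. From 1 to 3 kb the RUNX2 density was 5.24 per Mb (1.08 to 15.3) around OR genes and 34.3 (27.8 to 42.0) around other genes. From 3 to 10 kb it was 6.99 (3.49 to 12.5) and 34.4 (30.1 to 39.0). From 30 to 100 kb the RUNX2 values were 21.7 (16.2 to 28.5) and 21.6 (19.3 to 24.1), and the MTA1 values 19.2 (14.1 to 25.7) and 11.7 (10.1 to 13.6). The steps around OR genes take in other protein-coding genes and their ends, while the steps around other genes leave these out, so the values at larger distances are not alike in kind. The first 1 kb is not fully alike either. The listed start was an ATG, a likely coding start, in 46.4% of OR promoters and 2.62% of those of other genes. For such genes this step need not lie beside the site where transcription begins.

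**Figure D3:**
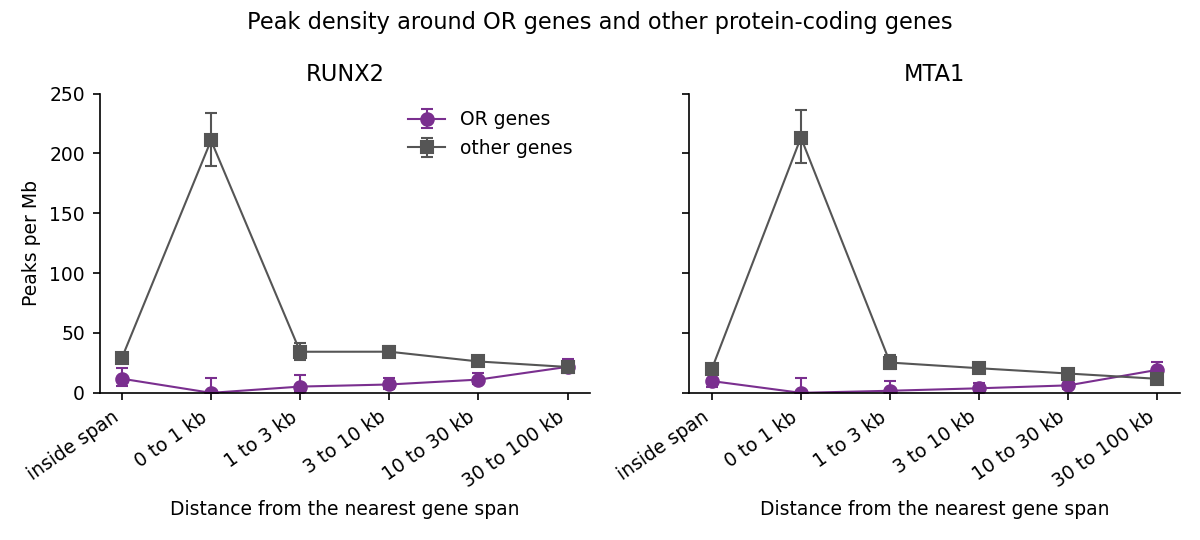
Peaks per Mb (vertical axis) are plotted by distance from the nearest gene span, in steps up to 100 kb, for OR genes (circles) and other protein-coding genes (squares) in the RUNX2 and MTA1 lists, with 95% Poisson intervals. Other genes peak above 200 per Mb in the first 1 kb, where OR genes stand at 0.

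Inside OR spans, which cover 1.02 Mb, there were 12 RUNX2 peaks, or 11.8 per Mb (6.10 to 20.6), and 10 MTA1 peaks, or 9.85 per Mb (4.72 to 18.1). Within other genes the densities were 29.2 (27.8 to 30.6) and 19.8 (18.7 to 21.0). Of the peaks in OR spans, 2 RUNX2 and 4 MTA1 peaks were more than 3 kb from any OR end, all in the long genes OR51B5 (165335 bp) and OR9Q1 (157736 bp). In OR51B5 a RUNX2 peak at chr11:5364260-5364521 (score 9.73) overlapped an MTA1 peak at chr11:5364299-5364546 (score 5.85), and a further RUNX2 peak at chr11:5477059-5477157 (score 5.22) stood alone. OR9Q1 held 3 MTA1 peaks and no RUNX2 peak, and the strongest of them, at chr11:58061931-58062159, had a score of 12.6, higher than 74.0% of the MTA1 list.

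OR genes lie in gene-poor sequence, so their clusters were set beside other sequence far from genes. OR clusters were taken as runs of OR genes with less than 1 Mb between neighbours, which gave 7 clusters with 8.79 Mb in all. Farther than 10 kb from any other protein-coding gene, the clusters held 6.87 RUNX2 peaks per Mb (4.99 to 9.23) over 6.40 Mb. Sequence of chromosome 11 at that distance from other genes and outside the clusters held 16.5 per Mb (15.4 to 17.6). The MTA1 values were 4.37 per Mb (2.91 to 6.32) and 9.23 per Mb (8.42 to 10.1). The intervals did not overlap in either list. This gap rested in part on the cluster from OR4C46 to OR5AK2. Without it the clusters held 9.58 RUNX2 peaks per Mb (6.81 to 13.1), still below the interval outside the clusters, but 6.87 MTA1 peaks per Mb (4.57 to 9.94), whose interval overlapped the one outside. Within 10 kb of other genes, by contrast, the clusters held 32.3 RUNX2 peaks per Mb (25.5 to 40.3), against 34.1 (32.7 to 35.5) near such genes elsewhere, and 24.7 MTA1 peaks per Mb (18.8 to 31.9) against 24.5 (23.4 to 25.7).

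The 61 other protein-coding genes inside the clusters had peaks at shares near those of the chromosome. A RUNX2 peak lay near an end of 38 of them (62.3%, 49.0% to 74.4%) and an MTA1 peak near an end of 33 (54.1%, 40.8% to 66.9%). All 33 had both. TAF10, a subunit of the general transcription factor TFIID, had a RUNX2 score of up to 38.9 and an MTA1 score of up to 33.8, and TRIM5, a restriction factor against retroviruses, had scores of 29.7 and 16.9. Such genes stand between OR genes, most of which had no peak.

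The clusters differed among themselves. The cluster from OR52B4 to OR10A3, with 67 members and all class I genes, held 8 of the 12 OR genes with a RUNX2 peak and 5 of the 6 with an MTA1 peak. All of these were class I. Away from other genes its density was 10.6 RUNX2 peaks per Mb (6.48 to 16.4) and 6.36 MTA1 peaks per Mb (3.29 to 11.1). The cluster from OR9Q1 to OR10V1, with 21 members, had 12.4 RUNX2 (6.80 to 20.9) and 11.6 MTA1 peaks per Mb (6.15 to 19.8). The intervals of both clusters overlapped those of sequence outside the clusters in both lists. The cluster from OR6X1 to OR8A1, with 22 members, had 2.69 RUNX2 (0.326 to 9.73) and 4.04 MTA1 peaks per Mb (0.833 to 11.8). In the cluster from OR4C46 to OR5AK2, with 48 members next to the centromere, the RUNX2 density was 2.15 per Mb (0.697 to 5.01), below the interval of the first cluster. The remaining clusters, with 7, 2 and 1 members, were too small to place.

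The cluster from OR4C46 to OR5AK2 had no MTA1 peak over its 2.39 Mb, which allows up to 1.55 per Mb. It had 5 RUNX2 peaks, 1 of them at a member, OR9G1. The stretch without an MTA1 peak that encloses it held 48 OR genes and 4 other protein-coding genes. It ran over 6.85 Mb, the longest such stretch of chromosome 11, when a gap of 4.17 Mb without any annotated gene at its side was counted in. Without that gap it ran over 2.67 Mb and was second to a stretch of 2.87 Mb that holds no protein-coding gene. The gap held 0 peaks of either list, and whether reads can be placed in it was not examined. In the RUNX2 list a stretch of 0.9495 Mb without a peak held 35 OR genes, from OR4C15 to OR5M3, and 1 other protein-coding gene. OR4C46 was the member farthest from a peak of either list, at 752.6 kb from RUNX2 and 2660 kb from MTA1.

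Over all members the median distance from the gene to the nearest RUNX2 peak was 52.2 kb (range 0 to 752.6 kb), and to the nearest MTA1 peak 103.7 kb (0 to 2660 kb). For the other genes both medians were 0 kb, meaning that a peak lay inside the span, and for other genes of at most 10 kb they were 0.0785 and 0.709 kb. The RUNX2 distance was over 100 kb for 51 members (30.4%) and for 2.04% of other genes, and the MTA1 distance for 87 members (51.8%) and 4.34%. Class I members were nearer to RUNX2 peaks, with a median of 20.5 kb, than class II members, with 71.4 kb. All class I members lie in the cluster from OR52B4 to OR10A3, so class cannot be told apart from position. There, the medians of the 12 class II members were 46.4 kb (RUNX2) and 35.2 kb (MTA1). Those of the class I members were 20.5 and 59.6 kb, so the order of the classes differed between the lists. OR51E1, also known from prostate, was 17.1 kb from a RUNX2 and 35.6 kb from an MTA1 peak.

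**Figure D4:**
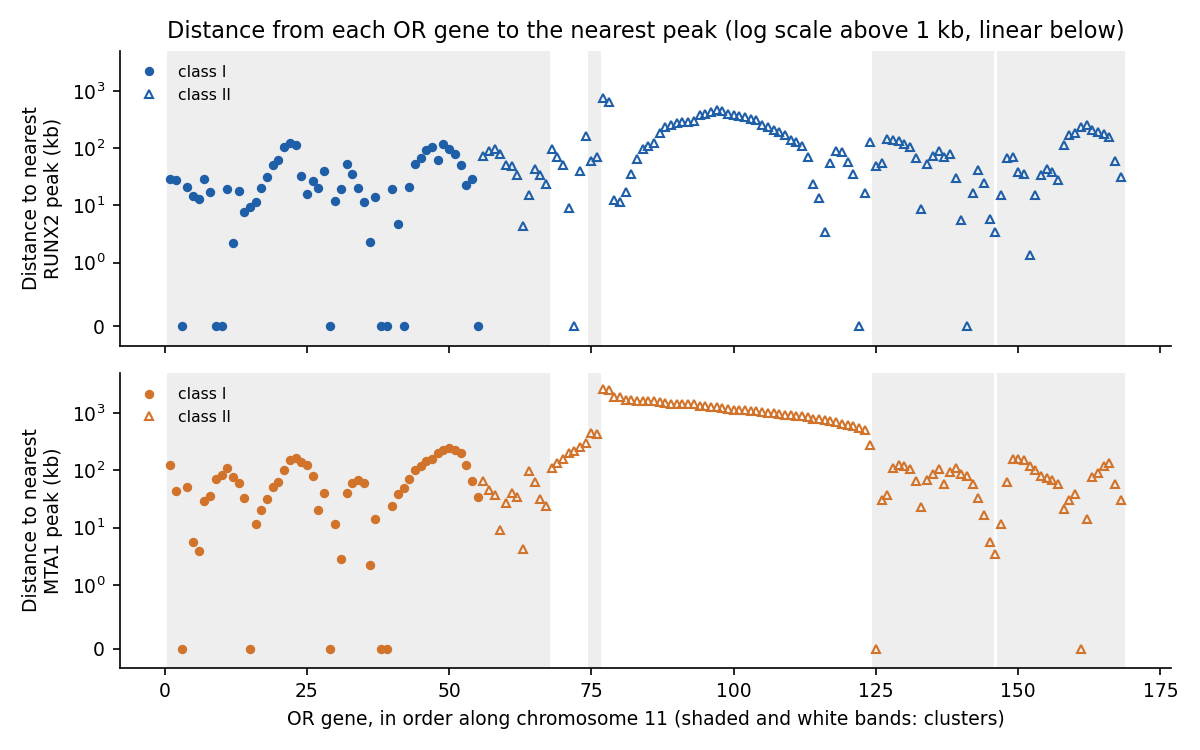
Each point is an OR gene, in order along the chromosome, and the vertical axis gives the distance in kb to the nearest RUNX2 (upper) or MTA1 (lower) peak, logarithmic above 1 kb, with bands marking the 7 clusters. The 48 genes from OR4C46 to OR5AK2 form the raised run in the lower plot, up to 2660 kb from an MTA1 peak.

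By family, the number that follows OR in a symbol, the members fell into 11 families, of which 6 had a RUNX2 peak at a member, 4 an MTA1 peak and 4 neither. Over all members the shares were 7.14% for RUNX2 and 3.57% for MTA1. Family 5 was the largest with 34 genes, and none had a peak of either list. At such low shares 34 genes are too few to set the family apart. Family 52 had a RUNX2 peak at 6 of 25 genes and an MTA1 peak at 2. Family 51 had them at 1 and 2 of 23 genes, family 4 at 2 and 0 of 24, and family 8 at 0 and 1 of 22. Families share clusters, so these counts describe position as well as relatedness.

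Other gene families of chromosome 11, most with narrow tissue ranges, were compared on small numbers. Of the 5 beta-globin genes, which the largest OR cluster encloses and which are expressed in red cell precursors, HBB had a RUNX2 peak of score 5.22 at 78 bp from the gene, and none had an MTA1 peak. Of 16 MS4A genes, which code for membrane proteins of blood cells, 4 had a RUNX2 and 2 an MTA1 peak. The MRGPR genes, which code for receptors of sensory neurons, had both peaks at 1 of 8, MRGPRG. Of 11 KRTAP5 genes of the hair shaft, 4 had a RUNX2 and 2 an MTA1 peak, and of 10 MMP genes, which code for matrix metalloproteinases, 2 and 0. The TRIM genes, many of them antiviral, had a RUNX2 peak at 7 of 23 and an MTA1 peak at 7. The 6 cytosolic ribosomal protein genes, used by every cell, had them at 5 and 6. The intervals of the MS4A, MRGPR, KRTAP5, MMP and globin shares overlapped those of the OR genes in both lists. Their MTA1 intervals lay below the 63.7% of all other genes. For RUNX2, the KRTAP5 (10.9% to 69.2%) and globin intervals (0.505% to 71.6%) also took in the 65.5% of all other genes. Those counts cannot place these families, while the RUNX2 intervals of the MS4A, MRGPR and MMP genes lay below 65.5%. The intervals of the TRIM and ribosomal protein genes lay above those of the OR genes. For TRIM and RUNX2 the margin was small, from 13.2% up against at most 12.1% for OR genes. The TRIM count also takes in TRIM6-TRIM34 beside TRIM6 and TRIM34, with the same top scores as TRIM6. The TRIM genes were mixed, and TRIM48, TRIM49, TRIM51, TRIM64 and TRIM77 had no peak of either list near an end.

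OR genes of the other chromosomes gave shares close to those of chromosome 11. Of 219, a RUNX2 peak was near an end of 13 (5.94%, 3.20% to 9.94%) and an MTA1 peak near an end of 4 (1.83%, 0.4998% to 4.61%), with both at 1. Of the 18368 other protein-coding genes of those chromosomes, 61.1% and 60.3% had such peaks. The intervals of the OR genes on and off chromosome 11 overlapped in both lists.

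Promoter sequence from RefSeq (GRCh38.p14) was given for 135 of the 168 members, as 138 promoters. They held a median of 1 CG dinucleotide in 300 bases (range 0 to 14), and 37 of them (26.8%) held none. Over all 35116 promoters of the table the median was 14, and 3.96% held none. The median content of G and C was 37.0% in OR promoters and 58.7% over all. A RUNX core, searched as TGTGGT or TGCGGT on both strands, was in 27 OR promoters (19.6%, 13.3% to 27.2%). It was in 19.6% (19.2% to 20.01%) of all promoters, so the raw shares were alike. No allowance was made for the difference in G and C content or in CG dinucleotides, so whether the core is rarer or more frequent than base content gives was not tested. In 64 of the 138 the listed start was an ATG, against 2.29% of all promoters, so that for many OR genes the table gives the coding start and not the site where transcription begins. Only 72.5% of the other genes of chromosome 11 had a promoter in the table, and CG content was therefore not compared with them.

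**Figure D5:**
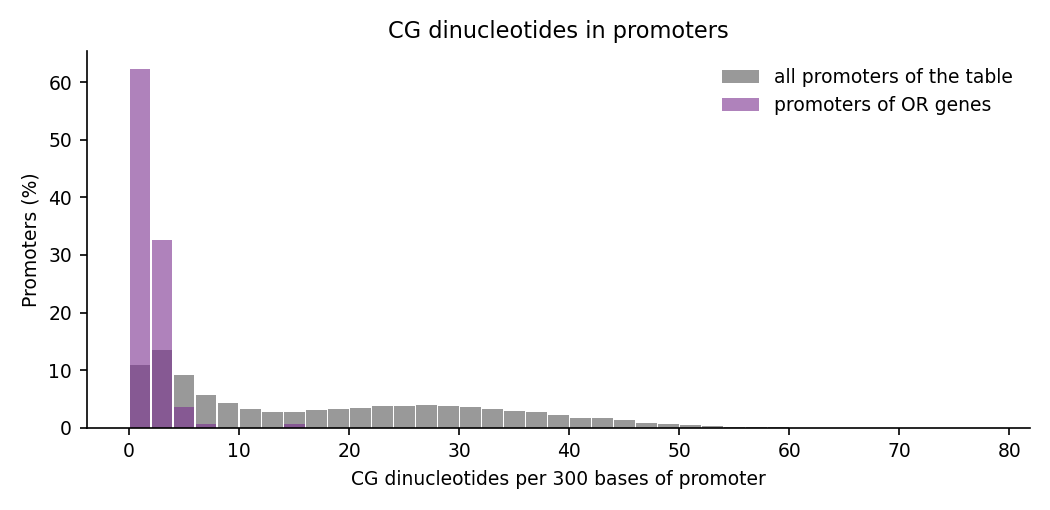
The horizontal axis counts CG dinucleotides in 300 bases of promoter and the vertical axis gives the percentage of promoters, for OR genes (purple, 138 promoters) and for all 35116 promoters of the table (grey). OR promoters sit at the left, with a median of 1 against 14.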

How the data were processed

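For each library the authors deposited a peak list with chromosome, start, end, name and a score that their peak caller gave. The scale of the deposited score was not stated. The submitters' processing notes name CASAVA 1.4, Bowtie 0.12.8, MACS and MACS2 without roles, and the build hg19. The positions went against that build. In each of 5 stretches of chromosome 11 and in both lists, the share of other protein-coding genes with a peak within 1 kb of an end was highest, at 46.9% to 61.4%, without any move of the peaks, and at most 26.0% after moves of 10 to 400 kb. Genes were therefore taken from RefSeq GRCh38.p14, and coordinates are those of the lists, 1-based.

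A peak counted for a gene when any of its bases lay within 3 kb of the start or end of that gene. Densities used peak centres, and the largest gap without any annotated gene (4.17 Mb) was left out. Distances were taken to the gene span. Intervals are Clopper-Pearson for shares and exact Poisson for densities. Steps were checked on simulated data. Tables were handled in Python 3.11.15 with pandas 2.3.3 and numpy 2.4.6, intervals came from scipy 1.17.1, and plots from matplotlib 3.10.9. Protein features were planned and not analysed here. Alternatives were other windows, score and width limits, gene sets, overlap rules and cluster gaps. Named genes were the members with both peaks, the 10 with the highest-scoring peak of each list, OR51E1 and OR51E2, and the comparison families. Genes named outside this rule (OR52N4, OR51B5, OR9Q1, OR4C46, with OSBP, TAF10 and TRIM5 among the genes inside clusters) were chosen after their values were seen. The members and lists were chosen with earlier results of these data known. Depth per library is unknown.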

Additional observations from a re-analysis of the deposited data

How the results depend on the processing

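With 1 library per antibody, an alternative value was set against the exact interval of the reported value or, for median scores and widths, against the interquartile range of the peaks at OR ends. By this measure 39 of 77 alternative values stayed inside and 38 moved outside. The share of OR genes stayed below that of other genes throughout. With a window of 10 kb, OR genes had RUNX2, MTA1 and both at 13.7%, 7.14% and 4.17%, and other genes at 81.1%, 76.1% and 72.6%. With 1 kb, OR genes had 4.17%, 1.79% and 1.19%, and other genes 53.1%, 52.6% and 46.2%. With the whole span plus 3 kb, OR genes had 8.33%, 5.36% and 2.98%, and other genes 77.3%, 73.3% and 68.9%. A score limit at the median of each list left 1.19% of OR genes with RUNX2 and 0% with MTA1 or both. Other genes had 52.1%, 50.5% and 44.5%. Of the 2 RUNX2 peaks then at OR ends, 0% overlapped an MTA1 peak. That value followed from the limit, since no MTA1 peak at an OR end was left to compare. The MTA1 peak that overlapped the RUNX2 peak at OR52H1 (score 5.53) fell below the limit. The 10000 highest-scoring peaks of each list left 0% of OR genes with RUNX2, MTA1 or both, against 23.4%, 33.7% and 19.7%. Peaks wider than the narrowest left 2.98% and 1.19% of OR genes with RUNX2 and MTA1, against 60.3% and 58.1% of other genes, and 52.9% of all other genes then had both. Other genes of at most 10 kb had MTA1 at 57.5% and both at 52.3%. Whole clusters held 13.8 RUNX2 and 9.90 MTA1 peaks per Mb, which fell to 9.07 and 6.76 when clusters were split at gaps of 200 kb. In alternatives chosen after seeing the data, leaving out the cluster with most OR genes gave 8.25 and 6.91 peaks per Mb and an MTA1 share of 0.990% of OR genes, and, over 10 kb from other genes, leaving out the cluster from OR4C46 to OR5AK2 raised the densities from 6.87 to 9.58 (RUNX2) and from 4.37 to 6.87 (MTA1), while leaving out the cluster from OR9Q1 to OR10V1 lowered MTA1 to 2.84. Also after seeing the data, counting the 3 genes on alternate sequences as without a peak gave 7.02% and 3.51%. The cause of these moves was not tested. No paired analysis was possible because the result comes from no test and each antibody has 1 library. Protein features were not run. Depth is unknown, so weak peaks may be missing from either list.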
